A study of Mus musculus with 9 samples.

Results

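Macrophage transcripts were followed in livers of female mice on a C57BL/6 background that lacked either Apoe alone (Apoe-/-, 5 libraries) or Apoe together with Mif-2 (Mif-2-/-Apoe-/-, 4 libraries), after 12 weeks of a cholesterol-containing high-fat diet begun in young adulthood. MIF-2, also called D-dopachrome tautomerase and encoded by Ddt, is a cytokine related to macrophage migration inhibitory factor. Both groups lacked Apoe, a lipoprotein gene that macrophages also express, and the Mif-2 deletion was present in every cell type. The gene set held 35 genes of the 27179 in the count table. It was assembled by role from genes known to mark Kupffer cells, macrophages in general, recruited monocytes and leukocytes, and lipid-associated macrophages, with a group of adaptor and innate receptor genes and 2 cytokines. All 35 passed the filter on low counts.

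Kupffer cells are the macrophages that live in the liver sinusoids, where they clear particles, dying cells and bacteria from the blood. When a fatty liver loses some of them, monocytes enter from the blood and take up similar positions, and a portion of these cells acquires the lipid-associated programme around TREM2, a receptor for lipids. Many macrophage receptors carry no signalling motif of their own and work through the adaptors DAP12 (Tyrobp) or the Fc receptor gamma chain (Fcer1g), which hold an immunoreceptor tyrosine-based activation motif (ITAM).

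The libraries were made from whole sections, so fewer cells of a type and less RNA per cell cannot be told apart. Totals ran from 2318148 to 10764182 counts. Levels are counts scaled to library size (CPM) after normalization by the trimmed mean of M values (TMM), given for Apoe-/- replicates 1 to 5 and then Mif-2-/-Apoe-/- replicates 1 to 4. Ddt lay between 233 and 972 CPM in Apoe-/- and between 2.51 and 5.49 CPM in Mif-2-/-Apoe-/- livers, low in every library labelled with the deletion. Liver identity was plain, with hepatocyte marker genes summing to between 72850.1 and 261983 CPM. Mif-2-/-Apoe-/- replicate 3 stood apart, with correlations of log2 CPM across genes from 0.687 to 0.758 with the other libraries, against 0.776 to 0.942 among the rest. The labels do not state that each library was a separate animal, so p-values measure the spread between libraries.

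None of the 35 genes passed an adjusted p of 0.05 between genotypes in edgeR's quasi-likelihood test with Benjamini-Hochberg adjustment over all 16860 genes tested, of which 0.13% passed (0.0593% lower and 0.0712% higher with the Mif-2 deletion). The smallest adjusted p of a member was 0.150, for Fcer1g. At an unadjusted p under 0.05 there were 7 members. Of these, 6 were lower in Mif-2-/-Apoe-/- livers (Cd5l, C1qa, Mpeg1, Lyz2, Cd9 and Fcer1g), against 6.52% of all genes, and 1 was higher (Itgax), against 8.99%. Over both directions the share of all genes was 15.5%. DESeq2, an alternative test, called 2 members lower (Cd5l and Fcer1g) and 0 higher. It called 5.27% of the 14030 genes to which it gave an adjusted p (2.52% lower and 2.75% higher), and 3 members had no adjusted p there. The 2 genotypes did not overlap at Mpeg1, which was lower in all Mif-2-/-Apoe-/- libraries, and at Itgax, which was higher. No overlap occurred in 4.26% of all genes (2.24% lower and 2.03% higher). Fitted differences were below 0 for 22 of 35 members, against 43.5% of all genes. Their median log2 fold change, Mif-2-/-Apoe-/- over Apoe-/-, was -0.29, and that of all genes was 0.17. Without Mif-2-/-Apoe-/- replicate 2 the members' median was -0.79 and 11 were lower at an unadjusted p under 0.05. Without replicate 3 of that group, which stood apart, the median was -0.23, and without replicate 4 it was -0.15. Without replicate 1 or replicate 4 only 2 were lower at that p. Over the 9 fits that each left out 1 library, an unadjusted p under 0.05 was kept in 9 for Cd5l and Fcer1g, 7 for Cd9, 6 for C1qa, 5 for Itgax, 4 for Lyz2 and 3 for Mpeg1.

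**Figure D1:**
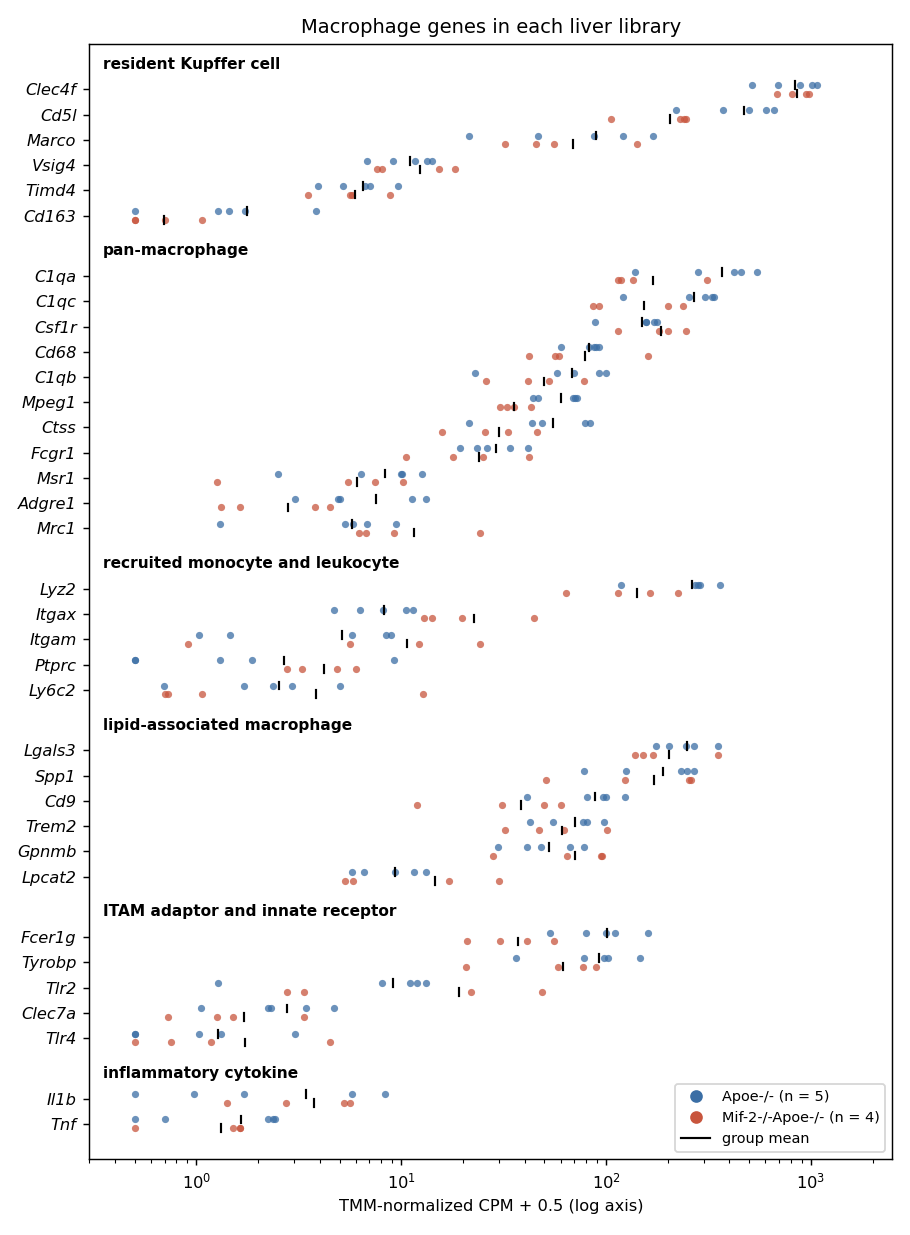
TMM-normalized CPM plus 0.5 on a log axis for the 35 genes, grouped by role, with 1 point per library (blue, Apoe-/-, n = 5; red, Mif-2-/-Apoe-/-, n = 4) and a black bar at the group mean. Clec4f has the highest CPM and its genotypes overlap. The genotypes also overlap at Fcer1g and Cd5l, whose means are lower in Mif-2-/-Apoe-/- livers.

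Among resident Kupffer cell genes, only Cd5l had an unadjusted p under 0.05, and the genotypes overlapped at every one of them. Clec4f, a lectin found on mouse Kupffer cells, was the most abundant of them per length at 338 CPM per kb of exon in Apoe-/- livers and 345 in those without Mif-2, on chr6:83644542-83656187 of GRCm38. Its CPM were 1072, 1013, 691, 880.3 and 518 in Apoe-/- libraries and 973, 812, 684 and 941 in Mif-2-/-Apoe-/- libraries. The ranges overlapped fully, with a log2 fold change of 0.03 (SE 0.30, edgeR adjusted p = 0.974).

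Cd5l, a secreted scavenger protein that supports macrophage survival, lay at chr3:87357881-87371073. It stood at 496, 604, 371, 658 and 219 CPM in Apoe-/- livers and at 230.0, 245, 105 and 239.8 CPM in Mif-2-/-Apoe-/- livers. Apoe-/- replicate 5 fell within the Mif-2-/-Apoe-/- range, and the other 4 lay above it. The log2 fold change was -1.20 (SE 0.38, unadjusted p = 0.00656, edgeR adjusted p = 0.175), and the exact permutation test over 126 arrangements of libraries gave p = 0.0397. DESeq2 gave an adjusted p of 0.0348, which was lost when any 1 of 7 libraries was left out and kept without Apoe-/- replicate 5 or Mif-2-/-Apoe-/- replicate 2. For other members at an unadjusted edgeR p under 0.05, the exact permutation p was 0.0238 for Fcer1g and Mpeg1 and 0.0317 for Cd9. It was 0.0635 for C1qa and 0.0794 for Lyz2, and that of Itgax is given below.

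Timd4, the phosphatidylserine receptor of embryonically derived Kupffer cells, was scarce. Its CPM were 6.17, 9.12, 4.69, 3.43 and 6.58 against 8.34, 5.11, 3.02 and 5.26, the ranges overlapped, and the log2 fold change was -0.14 (SE 0.81). Vsig4, a complement receptor, ranged from 6.30 to 17.9 CPM over all 9 libraries, and Marco, a scavenger receptor, from 20.9 to 169 CPM. Neither was at an unadjusted p under 0.05. Cd163, the haemoglobin scavenger receptor, had 9, 25, 2, 0 and 4 counts in Apoe-/- libraries and 1, 1, 0 and 0 counts in Mif-2-/-Apoe-/- libraries, too few for a fold change. The median over all 6 resident genes was -0.27 on the log2 scale, and it counted in the fitted value of Cd163.

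**Figure D2:**
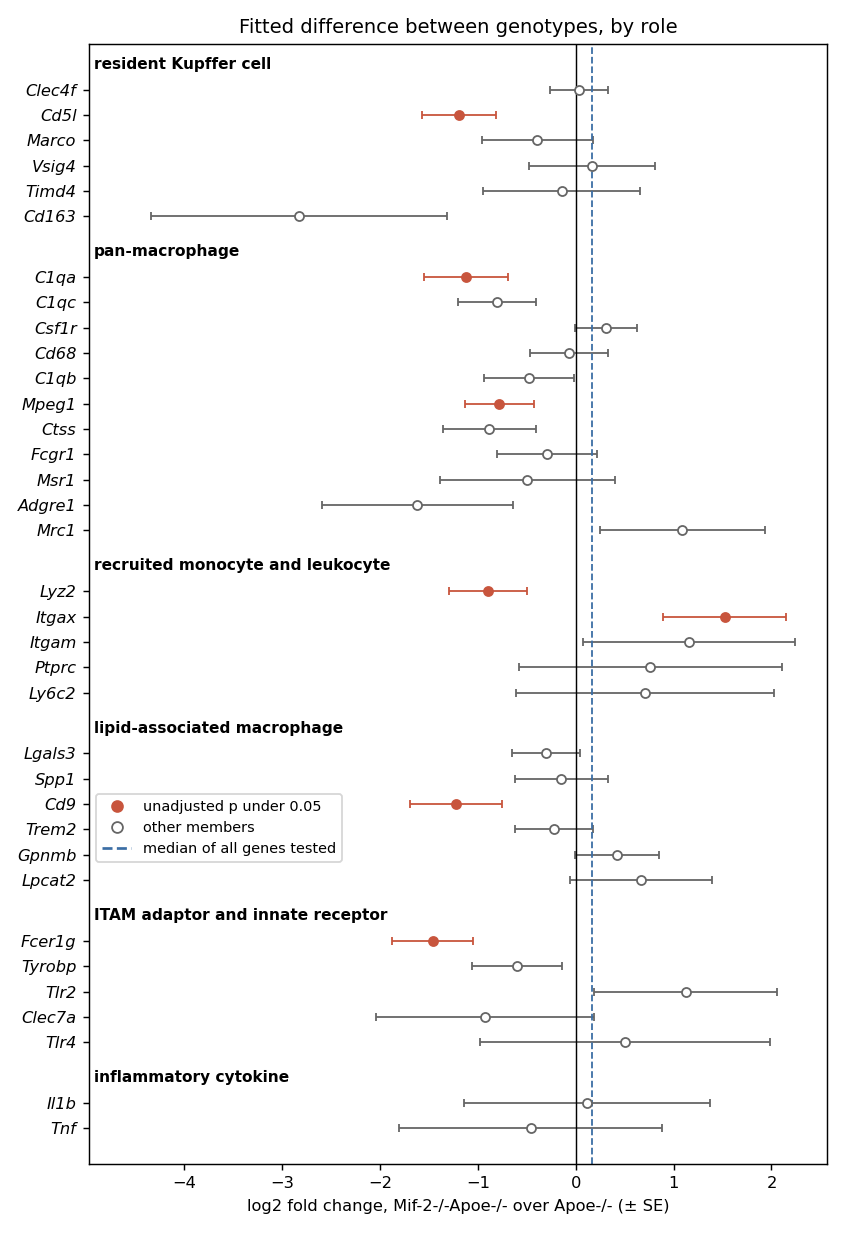
Fitted log2 fold change, Mif-2-/-Apoe-/- over Apoe-/-, with SE bars for the 35 genes by role (filled red, unadjusted p under 0.05). The dashed line is the median of all genes tested, 0.17, the value for Cd163 depends on the prior count since its Mif-2-/-Apoe-/- libraries held at most 1 count each, and no gene passed adjusted p = 0.05.

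Of 11 pan-macrophage genes, 9 had a fitted log2 fold change below 0, and their median was -0.49. The 3 chains of C1q, the starter of the classical complement pathway, come from neighbouring genes on the minus strand of chr4:136880129-136898803, a span of 18675 bases. C1qa read 280.4, 548, 419, 455 and 138 CPM in Apoe-/- livers and 118, 312, 135 and 114 CPM in Mif-2-/-Apoe-/- livers. All Mif-2-/-Apoe-/- libraries but replicate 2 fell below the lowest Apoe-/- library. Its log2 fold change was -1.12 (SE 0.43, unadjusted p = 0.0206, edgeR adjusted p = 0.242).

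C1qc read 253, 302, 328, 335 and 121 CPM in Apoe-/- and 91.7, 201, 236 and 85.5 CPM in Mif-2-/-Apoe-/- livers, where Apoe-/- replicate 5 again lay within the other group's range (log2 fold change -0.80, SE 0.40, unadjusted p = 0.0625). C1qb, at 62.4 and 45.1 CPM per kb in the 2 genotypes, had a log2 fold change of -0.47 and did not pass either threshold.

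C1qb and C1qc carry a match to AGGAAGT, letters bound by the myeloid factor PU.1, in the 250 bases before the RefSeq start site. They are shown as the neighbouring pair of this locus, 5′ to 3′ on the gene's strand in GRCm38.p6, with the match in capitals.
C1qb, chr4:136886201-136886450, minus strand: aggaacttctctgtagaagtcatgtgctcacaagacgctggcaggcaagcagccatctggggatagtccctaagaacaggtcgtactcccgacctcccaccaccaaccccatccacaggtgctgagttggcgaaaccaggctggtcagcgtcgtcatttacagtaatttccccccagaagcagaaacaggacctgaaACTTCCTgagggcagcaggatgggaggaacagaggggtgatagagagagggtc
C1qc, chr4:136892915-136893164, minus strand: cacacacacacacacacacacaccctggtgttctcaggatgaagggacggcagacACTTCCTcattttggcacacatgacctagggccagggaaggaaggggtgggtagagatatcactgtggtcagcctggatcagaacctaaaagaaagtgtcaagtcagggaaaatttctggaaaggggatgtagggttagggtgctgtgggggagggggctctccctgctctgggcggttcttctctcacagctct

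In C1qb the match began 53 bases before the start site and in C1qc 195 bases before it, in both cases on the opposite strand. Both strands were searched in 33 promoters of 29 members with an entry. AGGAAGT was found in 11 of 33 (33.3%), against 7.69% of all 32851 promoters. TGANTCA, the AP-1 letters, was in 3 (9.09%, against 6.75%), TTGCNNAA, the C/EBP letters, in 2 (6.06%, against 9.56%), and CACGTG, bound by TFEB and MITF, in 0 (against 6.02%). These matches describe letters in a window, and promoters of one gene may overlap.

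Mpeg1, the pore-forming perforin-2 of phagocytes, was the pan-macrophage gene without overlap. It read 70.2, 71.3, 43.7, 68.7 and 46.3 CPM in Apoe-/- livers and 35.2, 42.6, 32.5 and 29.7 CPM in Mif-2-/-Apoe-/- livers. The gap between the groups was narrow, from 42.6 to 43.7 CPM, and the log2 fold change was -0.78 (SE 0.35, unadjusted p = 0.0424, edgeR adjusted p = 0.303).

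The general macrophage markers Cd68, a lysosomal glycoprotein, and Csf1r, the receptor for the growth factor CSF1, differed by less than their spread, with log2 fold changes of -0.07 (SE 0.40) and 0.31 (SE 0.32). Exons of Csf1r share 873 bases with Hmgxb3 on the other strand, and the libraries hold no strand. Adgre1, which encodes F4/80, was low, with 7.0 ± 4.48 CPM in Apoe-/- (SD, n = 5) and 2.30 ± 1.56 CPM in Mif-2-/-Apoe-/- livers (SD, n = 4), and its unadjusted p in edgeR was 0.117. Ctss, a lysosomal protease, Msr1, a scavenger receptor, Fcgr1, the high-affinity Fc receptor, and Mrc1, the mannose receptor, had log2 fold changes from -0.88 to 1.09, and none of these 4 was at an unadjusted p under 0.05.

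Recruited cell genes did not all share a direction, with 4 of 5 above 0, 1 below 0 and a median log2 fold change of 0.76. Only 1 of those above 0 and the 1 below 0 were at an unadjusted p under 0.05. Lyz2, lysozyme of monocytes, macrophages and neutrophils, was by far the most abundant, at 285, 360.0, 270.4, 279 and 118 CPM in Apoe-/- and 114, 225, 163 and 63.3 CPM in Mif-2-/-Apoe-/- livers. Apoe-/- replicate 5 was the only Apoe-/- library inside the other group's range. The log2 fold change was -0.90 (SE 0.40, unadjusted p = 0.0416, edgeR adjusted p = 0.302). Reads of Lyz2 and its near-identical neighbour Lyz1 may be split between them, and the same holds for Ly6c2 and Ly6c1.

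Itgax, the integrin CD11c of dendritic cells and of recruited and lipid-associated macrophages, had its fitted value on the other side of 0. It read 10.02, 7.64, 4.23, 10.9 and 5.81 CPM in Apoe-/- livers and 12.4, 13.6, 43.8 and 19.2 CPM in Mif-2-/-Apoe-/- livers. Every Mif-2-/-Apoe-/- library exceeded every Apoe-/- library, and replicate 3 was highest. The log2 fold change was 1.52 (SE 0.63, unadjusted p = 0.0286, edgeR adjusted p = 0.269) and was 0.96 without Mif-2-/-Apoe-/- replicate 3. The exact permutation p was 0.00794, the smallest that 5 against 4 libraries allow.

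The promoters of these 2 genes, the recruited cell genes with an unadjusted p under 0.05, are shown in the same form, with AGGAAGT or TGANTCA matches in capitals.
Lyz2, chr10:117282273-117282522, minus strand: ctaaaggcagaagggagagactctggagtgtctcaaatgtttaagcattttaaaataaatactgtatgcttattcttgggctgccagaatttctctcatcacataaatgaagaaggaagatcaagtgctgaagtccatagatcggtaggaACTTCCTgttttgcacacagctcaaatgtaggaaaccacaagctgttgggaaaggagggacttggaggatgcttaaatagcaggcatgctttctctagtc
Itgax, chr7:128129300-128129549, plus strand: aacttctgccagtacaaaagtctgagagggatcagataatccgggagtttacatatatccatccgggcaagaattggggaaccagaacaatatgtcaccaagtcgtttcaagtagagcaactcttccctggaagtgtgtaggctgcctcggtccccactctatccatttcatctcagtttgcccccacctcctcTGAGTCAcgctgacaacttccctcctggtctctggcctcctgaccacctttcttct

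The Lyz2 match to the PU.1 letters began 100 bases before the start site, and the Itgax match to the AP-1 letters began 56 bases before it.

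Itgam, the integrin CD11b, had a log2 fold change of 1.16 (SE 1.08) that dropped to 0.32 without Mif-2-/-Apoe-/- replicate 3, and 3450 of its exon bases are shared with the overlapping gene Gm49368. Ly6c2, the inflammatory monocyte marker, lay between 0.194 and 4.53 CPM in 8 libraries and at 12.3 CPM in Mif-2-/-Apoe-/- replicate 3. Its log2 fold change of 0.70 turned to -2.64 without that library. Ptprc, the leukocyte antigen CD45, read 1.37, 0, 0, 0.806 and 8.71 CPM in Apoe-/- and 5.49, 2.27, 2.77 and 4.34 CPM in Mif-2-/-Apoe-/- livers. Apoe-/- replicate 5 was the highest of all libraries, and the log2 fold change of 0.76 (SE 1.34) became 2.65 without it.

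Mif-2-/-Apoe-/- replicate 3 was the highest of all 9 libraries at 3 of the 5 recruited genes and at 5 of 35 members, against 20.7% of all genes. It also held the highest summed dendritic cell markers, 144 CPM against 14.1 to 49.6 CPM in the other libraries. Its summed neutrophil markers were highest too, 128 CPM against 24.1 to 94.3 CPM, but these genes did not rise together. Csf3r (61.7 CPM) and Ngp (38.3 CPM) made up most of that sum. S100a8 (1.01 CPM) and S100a9 (0.756 CPM) were the lowest of all 9 libraries there, Elane and Camp were at 0, and Ly6g was at 0 throughout. The same library was highest for summed B cell markers (202 CPM against at most 117 CPM), cholangiocyte markers (164 CPM against at most 133 CPM) and platelet markers (197 CPM against at most 169 CPM). Their part in these values was not tested.

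**Figure D3:**
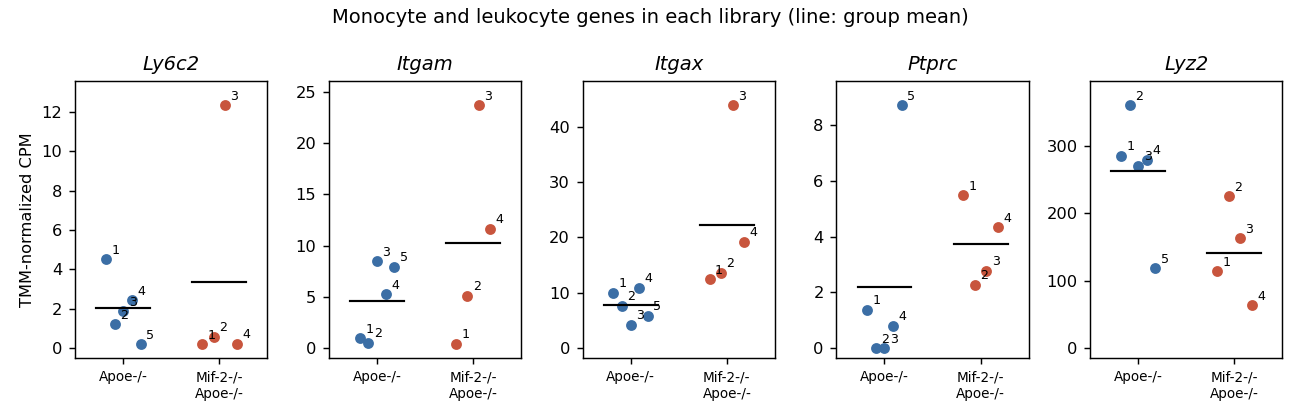
TMM-normalized CPM of the 5 recruited cell genes in each library, numbered by replicate, with a line at the group mean. The genotypes overlap at all but Itgax, and Mif-2-/-Apoe-/- replicate 3 carries the Ly6c2 mean, at 12.3 CPM.

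Lipid-associated macrophage genes gave no common direction, with 4 of 6 below 0 and a median of -0.18 on the log2 scale. Trem2, the lipid receptor that defines these cells, lies at chr17:48346401-48354147 and read 96.9, 80.0, 54.5, 76.6 and 42.0 CPM in Apoe-/- and 46.8, 101, 61.7 and 31.8 CPM in Mif-2-/-Apoe-/- livers. The groups overlapped and the log2 fold change was -0.22 (SE 0.40, edgeR adjusted p = 0.838). Gpnmb, a lysosomal membrane glycoprotein, read 40.7, 66.1, 77.5, 47.4 and 29.04 CPM against 63.6, 94.8, 93.5 and 27.4 CPM, also overlapping (log2 fold change 0.42, SE 0.43).

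Spp1, which encodes osteopontin and is also made by bile duct cells, read 125, 232, 247, 267 and 77.4 CPM in Apoe-/- and 123, 259.5, 253 and 50.5 CPM in the other genotype (log2 fold change -0.15, SE 0.48). Lgals3, galectin-3, read 244, 350.1, 269, 175 and 203 CPM against 138, 350.4, 169 and 150.2 CPM (log2 fold change -0.30, SE 0.35). Both genes spread as widely within a genotype as between genotypes. Lpcat2, an enzyme of phospholipid remodelling, lay at or below 29.5 CPM in all libraries (log2 fold change 0.67, SE 0.73).

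Cd9, a tetraspanin found on many cell types, had the lowest fitted value of its group. It read 96.4, 80.4, 123, 99.2 and 40.8 CPM in Apoe-/- and 30.7, 49.4, 59.5 and 11.4 CPM in Mif-2-/-Apoe-/- livers. Only Apoe-/- replicate 5 fell into the other group's range, and the log2 fold change was -1.22 (SE 0.47, unadjusted p = 0.0213, edgeR adjusted p = 0.245).

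Of the adaptors, Fcer1g had the smallest p of all members. The gene, which encodes the Fc receptor gamma chain, lies at chr1:171229572-171234365. Its CPM were 79.7, 99.3, 109.9, 159 and 53.0 in Apoe-/- livers and 40.7, 55.1, 20.4 and 29.7 in Mif-2-/-Apoe-/- livers. The ranges met only at Apoe-/- replicate 5 and Mif-2-/-Apoe-/- replicate 2. The log2 fold change was -1.46 (SE 0.41, unadjusted p = 0.00293, edgeR adjusted p = 0.150), and DESeq2 gave an adjusted p of 0.0164, kept without Apoe-/- replicate 1, Apoe-/- replicate 5 or Mif-2-/-Apoe-/- replicate 2 and lost without any of the other 6 libraries.

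Tyrobp, its DAP12 counterpart, read 97.1, 102, 77.5, 147 and 36.0 CPM against 57.5, 89.2, 20.2 and 76.6 CPM, overlapping, with a log2 fold change of -0.60 (SE 0.46, edgeR adjusted p = 0.569). The receptors were far scarcer. Clec7a, the beta-glucan receptor Dectin-1, stayed at or under 4.23 CPM and Tlr4, the endotoxin receptor, at or under 3.98 CPM. Tlr2, the lipopeptide receptor, ranged from 0.774 to 12.7 CPM in Apoe-/- and from 2.27 to 48.0 CPM in Mif-2-/-Apoe-/- livers. Mif-2-/-Apoe-/- replicates 2 and 3 lay below 4 of the 5 Apoe-/- libraries, and the log2 fold change of 1.12 (SE 0.93) became 0.052 without replicate 4.

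The cytokines had few counts, at most 57 in a library for Il1b and 14 for Tnf. Il1b, interleukin-1 beta, read 7.82, 1.21, 0.469, 0 and 5.23 CPM in Apoe-/- and 2.24, 5.11, 4.79 and 0.914 CPM in Mif-2-/-Apoe-/- livers. Tnf, tumour necrosis factor, read 1.92, 0, 1.88, 0.202 and 1.74 CPM against 1.02, 1.14, 0 and 1.14 CPM. The genotypes overlapped at both genes, with log2 fold changes of 0.12 (SE 1.26) for Il1b and -0.46 (SE 1.35) for Tnf.

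Several members varied across libraries alongside the overall composition of the RNA. The 10 most abundant genes took between 12.5% and 26.3% of the counts of a library. They took least in Apoe-/- replicate 5 of its group, 14.7%, and most in Mif-2-/-Apoe-/- replicate 2 of its group, 26.3%. Apoe-/- replicate 5 was lowest and Mif-2-/-Apoe-/- replicate 2 highest of its group at 14 of 35 members, against 10.6% of all genes. With this share as a covariate, the members' median log2 fold change was -0.08 and that of all genes 0.01. Cd5l went from -1.20 to -0.94, C1qa from -1.12 to -0.72 and Itgax from 1.52 to 1.33. Fcer1g went from -1.46 to -1.13, with an unadjusted edgeR p of 0.0099 under the covariate. A single library stood far from its group in 12.1% of all genes for Apoe-/- and 7.93% for Mif-2-/-Apoe-/-.

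**Figure D4:**
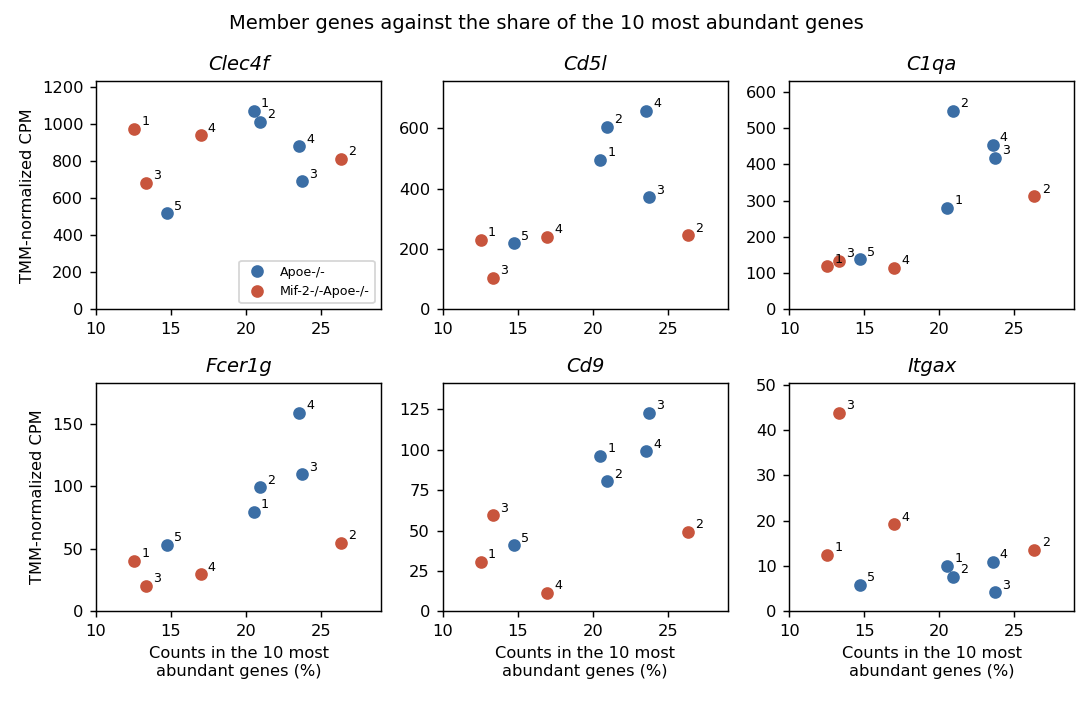
TMM-normalized CPM of 6 genes against the percent of a library's counts in the 10 most abundant genes, with libraries numbered by replicate (blue, Apoe-/-; red, Mif-2-/-Apoe-/-). C1qa, Fcer1g and Cd9 are low in Apoe-/- replicate 5, which at 14.7% lies among the Mif-2-/-Apoe-/- libraries, while Clec4f ranges from 518 to 1072 CPM with both genotypes mixed.

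Fold changes also varied with transcript length in the whole table. Among genes of at least 10 CPM, the median log2 fold change went from -0.43 in the quartile with the shortest exons (up to 2621 bases) through -0.08 and 0.15 to 0.35 in the longest quartile. The members were mostly short, with 19 of 35 in the shortest quartile. Over those 19 the median was -0.46, with 16 below 0, and over the 10 members in the third quartile it was 0.36, with 4 below 0. Cd5l, C1qa, Lyz2, Cd9 and Fcer1g lay in the shortest quartile and Itgax and Mpeg1 in the third. The part of length in the members' values was not tested.

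**Figure D5:**
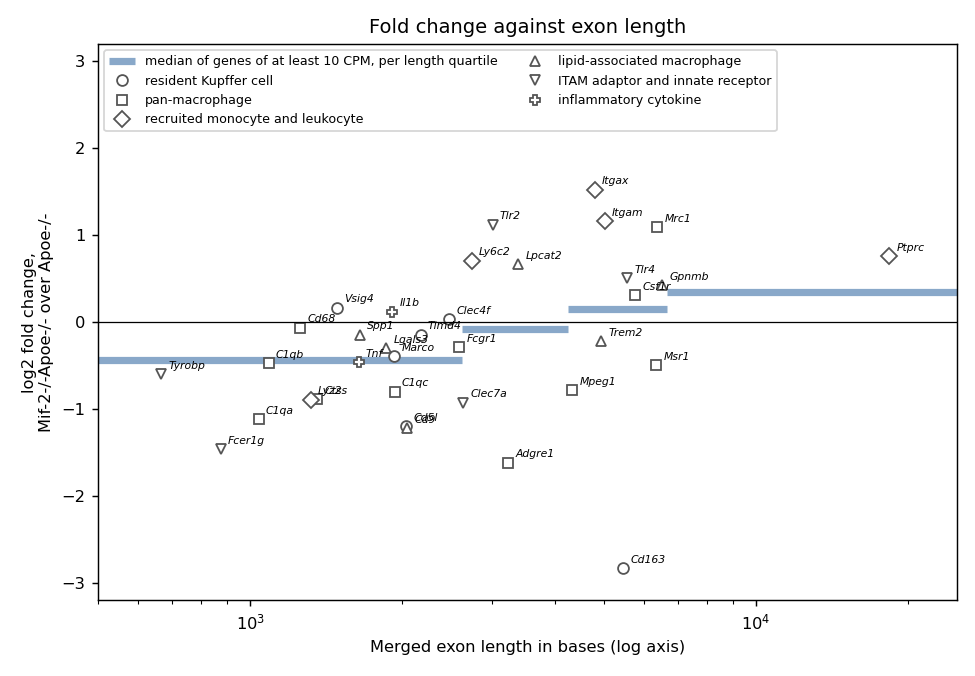
Fitted log2 fold change of the 35 genes against merged exon length in bases (log axis), with symbols for role. Blue bars give the median over genes of at least 10 CPM in each length quartile, from -0.43 in the shortest to 0.35 in the longest, and short members lie mostly below 0.

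Further genes of the same pathways, from lists assembled alongside the members, gave 1 call by edgeR. Of 20 further Kupffer cell identity genes, 1 was lower at adjusted p under 0.05 and 0 higher, against 0.0593% and 0.0712% of all genes. The 1 called was Id3, a transcriptional regulator needed for Kupffer cell identity and also expressed by other liver cells. It read 1149, 1087, 958, 1218 and 663 CPM in Apoe-/- livers and 402, 248, 195 and 297 CPM in Mif-2-/-Apoe-/- livers. The groups did not overlap, at a log2 fold change of -1.83 (SE 0.32, edgeR adjusted p = 0.0422). The call was lost in 6 of the 9 fits that left out 1 library, while DESeq2 gave an adjusted p of 5.04e-09.

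Hmox1, a haem oxygenase, was also without overlap, though both genotypes reached 26.7 CPM, with 80.9 ± 48.8 CPM in Apoe-/- (SD, n = 5), 15.8 ± 7.76 CPM in the other genotype (SD, n = 4) and edgeR adjusted p = 0.106, and Lgmn, a lysosomal protease, had a log2 fold change of -0.97 (edgeR adjusted p = 0.175). DESeq2 gave adjusted p of 0.00115 for Hmox1 and 0.0369 for Lgmn.

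Of 18 further lipid-associated macrophage genes none was called. At an unadjusted p under 0.05, 7 were lower and 0 higher, against 6.52% and 8.99% of all genes. Those of the list with the smallest p do not belong to macrophages alone. Plin2, which coats lipid droplets and is abundant in hepatocytes, averaged 1046 ± 374 CPM in Apoe-/- (SD, n = 5) and 350.1 ± 75.7 CPM in Mif-2-/-Apoe-/- livers (SD, n = 4) (edgeR adjusted p = 0.104, DESeq2 adjusted p = 0.00037). Lipa, lysosomal acid lipase, and Lamp1, a lysosomal membrane protein, had log2 fold changes of -1.35 and -1.53. Their DESeq2 adjusted p were 0.000142 and 0.0116.

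Of 14 further monocyte genes, 1 was lower and 1 higher at an unadjusted p under 0.05, against 6.52% and 8.99% of all genes. Fcgr4, an Fc receptor that signals through the gamma chain, averaged 29.8 ± 11.0 CPM in Apoe-/- (SD, n = 5) and 7.34 ± 4.75 CPM in Mif-2-/-Apoe-/- livers (SD, n = 4), without overlap (log2 fold change -2.04, SE 0.60, edgeR adjusted p = 0.161, DESeq2 adjusted p = 0.0055). F13a1, coagulation factor XIII of monocytes, read 0, 0.938, 0.939, 0.202 and 0.194 CPM against 0.203, 0.568, 4.54 and 14.4 CPM. Mif-2-/-Apoe-/- replicates 1 and 2 lay within the Apoe-/- range, and the F13a1 log2 fold change of 3.44 became 1.99 without replicate 4. Of 22 ITAM and Fc receptor signalling genes tested, 0 were lower and 4 higher at that p, against the same shares of all genes. Among the 4 was Trem1, which signals through DAP12. Trem1 was at or under 0.806 CPM in Apoe-/- libraries and at 0, 7.95, 53.2 and 0 CPM in Mif-2-/-Apoe-/- libraries, so the genotypes overlapped. The Trem1 log2 fold change of 5.52 became 2.91 without replicate 3.

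Of 26 TLR and inflammasome genes tested, 2 were lower and 2 higher at an unadjusted p under 0.05, against 6.52% and 8.99% of all genes. Tnfrsf1a, a receptor for TNF that hepatocytes also express, had a log2 fold change of -1.20 (SE 0.38, edgeR adjusted p = 0.175). Its genotypes did not overlap, and DESeq2 gave an adjusted p of 0.0357. Il6 had 3, 0, 0, 0 and 4 counts in Apoe-/- libraries and 12, 0, 43 and 40 counts in Mif-2-/-Apoe-/- libraries, with replicate 2 as low as the lowest Apoe-/- libraries. Nlrp3 had 0, 0, 1, 1 and 1 counts against 0, 0, 69 and 3 counts, so 1 library held nearly all of its counts.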

How the data were processed

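The authors used FastQC for quality control, cutadapt for trimming and HISAT2 for alignment to mm10, and counted exonic reads per Entrez gene, as the paper and the submitters' processing notes state. The counter and tool versions are not given in the sources used here. The deposited values are whole-number counts without normalization, from Smart-seq2 libraries of frozen liver sections whose lysates were combined. Labels gave the genotypes of 9 libraries, and no library was left out, although the study gives 4 mice per group for its heatmap and 5 Apoe-/- libraries were analysed here. 1 line naming no gene was dropped, and symbols were matched to 25275 of 27179 Entrez identifiers through RefSeq (GRCm38.p6).

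A gene was tested when 3 or more libraries of one genotype held 1 count or more and it was not among the 10 genes of highest mean CPM. The quasi-likelihood test of edgeR 4.0.16, with TMM and Benjamini-Hochberg adjustment, ran on these 16860 genes. Each SE of a log2 fold change is its absolute value divided by the square root of the test's F statistic. DESeq2 1.42.0 was the alternative tool. For named members a two-sided exact permutation test on log2(CPM + 0.5) was added. Exon lengths came from GENCODE M21 and promoters from RefSeq. The procedure was tested on simulated data. The biological coefficient of variation of the edgeR fit, a measure of spread between libraries of a genotype, was 0.909. A member that was not called may therefore still differ between genotypes. Members and lists were chosen with earlier results of these data known. Named in full were, per role, members at an unadjusted p under 0.05 or without overlap and the 2 of highest mean CPM, together with Clec4f, Timd4, Trem2, Gpnmb, Il1b and Tnf. From each further list, genes passing adjusted p 0.05 and at most the 3 of smallest p were named. Alternatives were other normalizations, filters, tools, a replicate block, a covariate and leaving out each library. Where a floor of 3 counts is given, it covers counting error only. No 2 libraries agreed within sampling noise.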

Additional observations from a re-analysis of the deposited data

Results flagged for a closer look

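For 10 of the 35 genes, 1 library lay far from the rest of its genotype on the log2(CPM + 0.5) scale, judged by the gap to the nearest library divided by the group's range (Dixon's test). These were 10 of 70 groups examined (14.3%), where chance flags about 1 in 20, and over all genes the share was 12.1% for Apoe-/- and 7.93% for Mif-2-/-Apoe-/-.

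Apoe-/- replicate 5 was the low library at 4 genes. Cd68 stood at 60.0 CPM there against 82.2 to 92.0 CPM (gap over range 0.735), C1qc at 121 CPM against 253 to 335 CPM (0.724), Lyz2 at 118 CPM against 270.4 to 360.0 CPM (0.743) and Tlr2 at 0.774 CPM against 7.55 to 12.7 CPM (0.789). Apoe-/- replicate 4 was low at Csf1r, with 87.9 CPM against 155 to 178 CPM (0.809), and at Mrc1, with 0.806 CPM against 4.84 to 8.92 CPM (0.713).

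In Mif-2-/-Apoe-/- livers, replicate 3 was low at Cd5l, with 105 CPM against 230.0 to 245 CPM (0.924), and at Tnf, with 0 against 1.02 to 1.14 CPM (0.933). It was high at Ly6c2, with 12.3 CPM against 0.203 to 0.568 CPM (0.856). Replicate 2 was high at C1qa, with 312 CPM against 114 to 135 CPM (0.838).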

How the results depend on the processing

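No member was called by edgeR under any other normalization, filter or gene class, with the covariate, at adjusted p under 0.1, or in any of the 9 fits that left out a library (0 to 0). Called members numbered 2 by DESeq2, 2 by DESeq2 on the genes kept for edgeR (chosen after seeing the data) and 7 at an unadjusted p under 0.05.

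The labels do not state whether replicate numbers pair the libraries. Correlations of same-numbered deviations were 0.124, 0.0082, 0.061 and -0.012, and no Mif-2-/-Apoe-/- library correlated best with its own number. These deviations cover all genes tested and also carry differences in RNA composition, so they cannot decide whether the numbers pair animals. With the replicate block, 3 members (Cd5l, C1qa and Fcer1g) and 560 of all genes were called, against 22 without it. For the further lists, calls by the block and by DESeq2 were 2 and 3 for Kupffer cell identity (0 to 2 leaving out a library), 5 and 4 for lipid-associated macrophages (0 to 3), 1 and 1 for TLR and inflammasome genes, and 0 and 1 for monocyte genes.

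The members' median log2 fold change stayed below 0 under all alternatives, from -0.79 (without Mif-2-/-Apoe-/- replicate 2) to -0.15 (without replicate 4) when a library was left out. Members lower at an unadjusted p under 0.05 numbered 11 without Mif-2-/-Apoe-/- replicate 2, 2 without replicate 1 or replicate 4, and 3 with the covariate. The median of all genes moved between -0.0015 and 0.34 over settings.

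Of 35 members, 24 kept their sign and 11, none of them called, did not. Clec4f was at -0.16 (TMMwsp), -0.0049 (filterByExpr), -0.065 (top 10 genes kept), -0.061 (without mitochondrial, rRNA, Gm and Rik genes) and -0.094 (replicate block). Vsig4 (-0.0034) and Il1b (-0.0019) turned with TMMwsp. With the block Ly6c2 was at -1.61, Tlr2 at -0.097 and Tnf at 0.34. With the covariate Cd68 was at 0.13, Ly6c2 at -0.33 and Spp1 at 0.21. Leaving out each library gave ranges of -0.13 to 0.12 for Clec4f, -0.11 to 0.35 for Vsig4, -0.43 to 0.054 for Timd4, -0.75 to 0.15 for Cd68, -2.64 to 1.1 for Ly6c2, -0.51 to 0.16 for Spp1, -0.065 to 0.96 for Lpcat2, -1.33 to 1.5 for Tlr4 and -0.27 to 0.86 for Il1b. The cause was not tested.

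By DESeq2, leaving out each library (chosen after seeing the data) gave adjusted p from 0.00169 to 0.129 for Cd5l and from 0.00116 to 0.0807 for Fcer1g. The edgeR log2 fold change of Ptprc ranged from 0.41 to 2.65 (without Apoe-/- replicate 5) and that of Tlr2 from 0.052 (without Mif-2-/-Apoe-/- replicate 4) to 1.496 when a library was left out. A count of 3 amounted to between 0.402 and 1.70 CPM depending on the library. Cd163, Tlr4, Tnf, Il1b, Clec7a, Ly6c2, Ptprc, Itgam and Msr1 each had at least 1 library at or under this count.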
